A study of Homo sapiens with 38 samples.

Results

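The genes described are 10 genes of secreted inflammatory signals in melanoma cells: the CXC chemokine genes CXCL1, CXCL2, CXCL3, CXCL5 and CXCL8 (also written IL8), and the cytokine genes IL6, IL1A, IL1B, IL24 and LIF. They were chosen by name from the 19775 genes that a probe set names alone on these Affymetrix arrays. All 10 were measured, by 17 probe sets, and all 10 passed the filter on low signals through 15 of those probe sets. For each gene the probe set with the highest mean signal stood for the gene, and other probe sets are given where they bear on a result.

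The CXC chemokines studied here signal through the receptor CXCR2, attract neutrophils and promote the growth of blood vessels, and melanoma cells are known to secrete several of them. IL1A and IL1B are the alarm cytokines that activate NF-kappa B, which in turn binds chemokine and IL6 promoters. IL6 and LIF bind receptor complexes that share the chain gp130 and activate STAT3, and IL24, named first as a melanoma differentiation gene, belongs to the IL10 family. In A375 cells the mutant BRAF kinase drives MEK and ERK, which act on transcription factors of the AP-1 family.

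The data were 38 arrays in 14 groups, 20 arrays of the clone 16R6-4, called resistant here, and 18 of A375, a human melanoma cell line called parental here. The clone was derived from A375 and selected for resistance to GSK2118436 (GSK436, dabrafenib, a RAF inhibitor), and since it is 1 clone, what is particular to it cannot be told apart from resistance. Cells of both lines were treated for 24 h with GSK436 at 0.1 or 1 µM, with GSK1120212 (GSK212, trametinib, a MEK inhibitor) at 10 or 30 nM, with 10 nM GSK212 together with GSK436 at 0.1 or 1 µM, or with the vehicle DMSO. Resistant cells had 3 arrays for each of the 6 drug treatments and 2 for DMSO. Parental cells had 2 arrays for each dose of GSK436 and for 30 nM GSK212, and 3 for 10 nM GSK212, either combination and DMSO. Whether arrays of 1 group stand for separate cultures is not given in the labels, so p-values measure only the spread between the arrays at hand, and the number of arrays limits the precision.

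Values are MAS5 signal intensities, scaled so that each array has nearly the same trimmed mean (149.84 to 149.96). Differences are log2 fold changes ± standard error of the signal with 2.8 added (the pooled 10th percentile), a scale that understates the change of dim genes. A gene was called where limma's test gave a Benjamini-Hochberg adjusted p under 0.05 over 18063 genes and the difference was at least 1. The 6 treatments of a line share its DMSO arrays, so their changes are not independent of each other. The pooled median signal of 34.88 serves as a mark of dim signals. The arrays also differed in RNA length, read from the actin control probe sets: the 3'/5' signal ratio averaged 8.16 to 22.7 in the resistant drug groups and 5.47 in resistant DMSO cells, and 10.7 to 37.3 in the parental drug groups and 7.76 in parental DMSO cells. It exceeded 20 on 15 arrays, none of them with DMSO, and its part in the drug changes was not tested except where values without those arrays are given. Markers of leukocytes, which also make these cytokines, were mostly dim: none of the 9 with a probe set lay over the pooled median on every array of a line, and the summed signal of the 9 was 110 to 363.04 in resistant and 136.64 to 550.7 in parental cells. The medians of NCAM1 (43.005 in resistant and 48.16 in parental cells) lay over it, as did those of CSF1R (42.475) and LYZ (42.835) in parental cells. Of 7 melanocytic and neural crest markers with a probe set, MIA, SOX10 and the melanocyte factor MITF lay over the pooled median on every parental array. Only MITF did so on every resistant array, while MLANA, PMEL, S100B and SOX10 lay under it on all of them. In parental cells the medians of MLANA, PMEL and TYR (20.285, 28.515 and 24.445) also lay under it. The epithelial markers KRT8 and KRT18 lay over it on every array of both lines, while CDH1 and KRT19 lay under it on all resistant arrays. In such bulk samples fewer cells expressing a gene and less RNA per cell cannot be told apart.

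The CXC members lie close together on chromosome 4, where the order of protein-coding genes in RefSeq is CXCL8, CXCL6, PF4V1, CXCL1, PF4, PPBP, CXCL5, CXCL3, CXCL2. IL1A and IL1B lie on chromosome 2, IL24 on chromosome 1, IL6 on chromosome 7 and LIF on chromosome 22. RefSeq promoter windows of the 250 bases before the start were found for 9 of the 10 members, LIF not among them. Those printed below belong to members whose signals changed with the drugs or were set against each other, CXCL1, CXCL8, IL6 and IL24, and to CXCL2, the close relative of CXCL1 that was called in 1 parental treatment. The capitals mark matches to the NF-kappa B motif GGNNNTTCC, the AP-1 motif TGANTCA or the C/EBP motif TTGCNNAA, searched on both strands. The windows, on GRCh38.p14, are chr4:73869143-73869392 on the plus strand for CXCL1, chr4:73740319-73740568 on the plus strand for CXCL8, chr4:74099196-74099445 on the minus strand for CXCL2, chr7:22726950-22727199 on the plus strand for IL6 and chr1:206897193-206897442 on the plus strand for IL24.
CXCL1: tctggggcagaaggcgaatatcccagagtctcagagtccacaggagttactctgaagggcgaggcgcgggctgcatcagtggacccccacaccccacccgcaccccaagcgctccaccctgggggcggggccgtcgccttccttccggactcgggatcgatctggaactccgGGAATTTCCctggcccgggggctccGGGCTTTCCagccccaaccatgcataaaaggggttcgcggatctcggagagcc
CXCL8: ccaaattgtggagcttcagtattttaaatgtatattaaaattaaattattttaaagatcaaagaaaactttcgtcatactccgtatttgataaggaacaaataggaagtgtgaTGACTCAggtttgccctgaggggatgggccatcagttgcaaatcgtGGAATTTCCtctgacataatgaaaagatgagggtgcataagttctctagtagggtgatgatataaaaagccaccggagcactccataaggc
CXCL2: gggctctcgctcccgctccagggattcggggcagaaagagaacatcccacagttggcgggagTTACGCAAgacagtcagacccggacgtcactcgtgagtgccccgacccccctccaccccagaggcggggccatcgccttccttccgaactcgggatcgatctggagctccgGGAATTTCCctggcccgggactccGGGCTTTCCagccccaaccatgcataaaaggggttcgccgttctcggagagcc
IL6: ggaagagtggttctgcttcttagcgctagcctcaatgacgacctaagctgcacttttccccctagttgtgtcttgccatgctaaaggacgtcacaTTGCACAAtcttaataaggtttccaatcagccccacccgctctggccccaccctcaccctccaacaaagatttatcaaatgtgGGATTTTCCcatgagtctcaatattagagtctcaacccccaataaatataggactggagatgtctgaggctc
IL24: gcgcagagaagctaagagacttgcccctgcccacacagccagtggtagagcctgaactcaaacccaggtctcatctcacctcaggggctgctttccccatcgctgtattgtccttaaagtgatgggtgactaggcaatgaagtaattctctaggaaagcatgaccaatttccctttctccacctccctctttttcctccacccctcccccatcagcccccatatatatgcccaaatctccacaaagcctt

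CXCL1 held NF-kappa B matches 78 bases (GGAATTTCC) and 53 bases (GGGCTTTCC) before its start, and CXCL2 held the same letters 77 and 53 bases before its start. CXCL3, not printed, held them at 78 and 53 bases, and CXCL5 held GGAATTTCC at 90 bases. CXCL8 held GGAATTTCC at 91 bases and the AP-1 match TGACTCA at 137 bases. IL6 held GGATTTTCC at 72 bases and the C/EBP match TTGCACAA at 155 bases, and CXCL2 also held a C/EBP match. Thus all 5 CXC windows and that of IL6 held the NF-kappa B letters, which stand in 17.1% of all 35116 windows of this length. The windows of IL1A, IL1B and IL24 did not hold them. Those of CXCL1, CXCL2 and CXCL3 are alike (47.4% to 64.8% identical letters), so their matches are not independent of each other. The AP-1 letters stand in 6.57% of the windows and the C/EBP letters in 9.05%. No match to any of the 3 motifs was found in the IL24 window. Such matches are descriptions of sequence, and binding was not measured here.

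In parental cells both inhibitors lowered 2 of the CXC chemokine genes and 2 of the cytokine genes in every treatment. CXCL1, a growth-regulated chemokine, CXCL8, the main neutrophil chemokine, LIF, a cytokine of the IL6 family, and IL24 were all called lower in each of the 6 treatments. Of the 10 members 5 were called at 0.1 µM GSK436, 5 at 1 µM GSK436, 4 at 10 nM GSK212, 5 at 30 nM GSK212, 4 in the combination with 0.1 µM GSK436 and 5 in that with 1 µM GSK436. The share of all genes called in the same comparisons was 18%, 19.6%, 11.8%, 9.97%, 10.7% and 17.1%. In the lower direction 5 members were called at 0.1 µM GSK436 and 4 in each other treatment, against 6.48%, 7.78%, 4.09%, 3.46%, 3.66% and 5.81% of all genes. The median change of the 10 members lay between -1.48 and -0.54, while the median of all genes lay between 0.17 and 0.39.

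CXCL1 gave signals of 76.84 and 54.69 with 0.1 µM GSK436, 73.47 and 73.07 with 1 µM GSK436, 88.18, 94.81 and 97.47 with 10 nM GSK212, and 97.52 and 96.37 with 30 nM GSK212. In the combinations it gave 95.96, 94.94 and 115.2 with 0.1 µM GSK436 and 97.61, 53.38 and 82.89 with 1 µM GSK436, against 567.81, 553.68 and 405.36 in parental DMSO cells. Every treated array lay below every DMSO array. CXCL1 fell by 2.90 ± 0.27 at 0.1 µM GSK436 (adjusted p = 1.39e-09 in limma), a 7.48-fold lower value, and its smallest change was -2.28 ± 0.24, in the combination with 0.1 µM GSK436 (adjusted p = 8.6e-09).

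CXCL8 gave signals of 40.72 and 3.06 with 0.1 µM GSK436, 46.8 and 4.98 with 1 µM GSK436, 41.57, 19.33 and 12.68 with 10 nM GSK212, and 25.2 and 2.84 with 30 nM GSK212. In the combinations it gave 24.3, 17.86 and 2.97 with 0.1 µM GSK436 and 5.95, 11.81 and 6.93 with 1 µM GSK436, against 555.04, 635.02 and 283.95 in parental DMSO cells. The treated arrays thus lay far below the DMSO arrays, and 3 of the 15 stayed over the pooled median. The changes ran from -5.44 ± 0.80 in the combination with 1 µM GSK436 (adjusted p = 2.54e-06 in limma) to -4.24 ± 0.80 at 10 nM GSK212 (adjusted p = 0.000115). Their size depends on the small value added to dim signals: with the pooled median added instead, they ran from -3.54 to -3.11. A dimmer second probe set of CXCL8 was lower in all 6 treatments, by -2.73 to -1.15, and was called in the combination with 0.1 µM GSK436 (adjusted p = 0.037).

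LIF, which acts through gp130 and STAT3, gave 73.13 to 142.29 on the 15 treated parental arrays, with a median of 115.84, against 368.26, 329.85 and 434.13 in parental DMSO cells. IL24 gave 66.92 and 70.08 with 0.1 µM GSK436, 136.58 and 128.16 with 1 µM GSK436, and 19.06 to 136.58 with a median of 71.25 over all treated arrays, against 408.5, 386.91 and 521.58 in parental DMSO cells. In both genes the treated and the DMSO arrays did not overlap. LIF changed by -2.23 ± 0.26 at 30 nM GSK212 (adjusted p = 6.29e-08 in limma) and by -1.52 ± 0.23 in the combination with 1 µM GSK436 (adjusted p = 4.9e-06), the ends of its range. IL24 changed by -3.05 ± 0.34 at 10 nM GSK212 (adjusted p = 1.67e-08) and by -1.70 ± 0.38 at 1 µM GSK436 (adjusted p = 0.000878), its smallest change. None of these 24 calls of CXCL1, CXCL8, LIF and IL24 was lost when any single array was left out, or under the other processing settings that gave a value. These were 14 settings for 16 of the calls and 13 for the 8 with GSK436 alone, because all 4 parental arrays with GSK436 alone had an actin ratio above 20 and the fit without such arrays has no value for them.

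**Figure D1:**
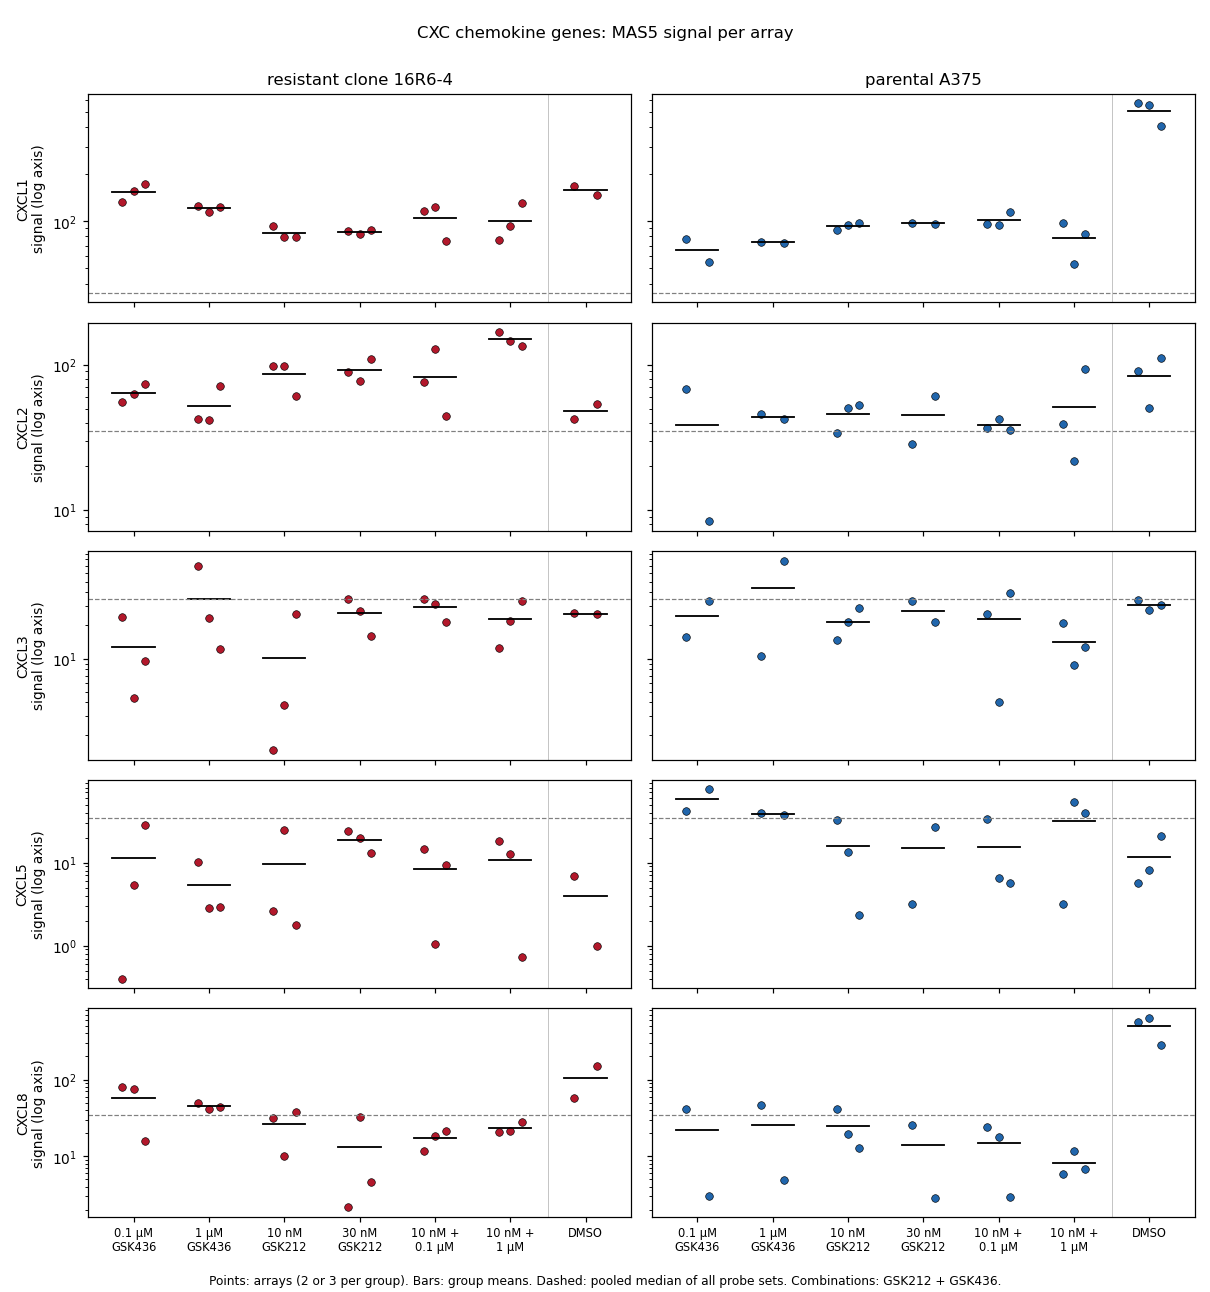
Signal intensity (MAS5 units, log axis) of the 5 CXC chemokine genes by treatment, with resistant cells on the left and parental cells on the right; points are arrays, bars are group means and the dashed line is the pooled median signal of 34.88. CXCL1 and CXCL8 are high in parental DMSO cells (405.36 to 567.81 and 283.95 to 635.02) and low on every treated parental array, while CXCL3 and CXCL5 lie mostly below the dashed line.

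The other CXC genes did not share this pattern. CXCL2, a close relative of CXCL1, gave 8.32 to 93.74 on treated parental arrays, with a median of 42.18, against 90.56, 50.7 and 111.56 in parental DMSO cells. It was called lower at 0.1 µM GSK436 (-1.56 ± 0.54, adjusted p = 0.0308 in limma), where its arrays gave 68.16 and 8.32, and without the second of these (parental 0.1 µM GSK436 replicate 3) the change was -0.23. The call was also lost without parental DMSO replicate 1 or replicate 3, with the pooled median added (-0.80), with the mean of the probe sets (-0.83) and with only the groups compared. In the other treatments it gave -1.02 to -0.79 and was not called. A dimmer probe set of CXCL2 did not follow it: it gave -0.09 at 0.1 µM GSK436 and 1.36 ± 0.93 at 1 µM GSK436, where its arrays of 36.14 and 39.62 lay above the DMSO arrays of 6.4 to 18.88, and it ran from -1.61 to 1.46 over the 6 treatments without a call. CXCL3 gave 4.04 to 77.72 on treated parental arrays with a median of 21.29, against 27.6 to 34.11 with DMSO, and CXCL5, known as ENA-78, gave 2.35 to 76.34 with a median of 32.3, against 5.66 to 21.1 with DMSO. Both were dim, over the pooled median on 3 and 6 of the 38 arrays, and neither was called in any treatment. CXCL1, CXCL2 and CXCL3 are closely related copies, and how far their probe sets share signal is uncertain.

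IL6, the cytokine that activates STAT3 through gp130, did not fall with CXCL1 and CXCL8. In parental cells it gave 45.4 and 7.67 with 0.1 µM GSK436, 43.72 and 41.19 with 1 µM GSK436, 37.39, 9.12 and 29.67 with 10 nM GSK212, and 36.8 and 52.33 with 30 nM GSK212. In the combinations it gave 70.2, 19.19 and 6.11 with 0.1 µM GSK436 and 41.88, 51.05 and 20.57 with 1 µM GSK436, against 30.28, 1.29 and 4.37 in parental DMSO cells. These are dim signals, over the pooled median on 9 of 15 treated and 0 of 3 DMSO arrays, and the groups overlap: 6 treated arrays lay below the highest DMSO array, while that array lay apart from the other two. IL6 was called higher at 1 µM GSK436 (2.19 ± 0.69, adjusted p = 0.0152 in limma), at 30 nM GSK212 (2.24 ± 0.69, adjusted p = 0.0209) and in the combination with 1 µM GSK436 (1.95 ± 0.62, adjusted p = 0.0162), where 11.9%, 6.51% and 11.3% of all genes were called higher. The other 3 treatments gave 1.18 to 1.33 and were not called.

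All 3 calls of IL6 were lost without parental DMSO replicate 2, the array with a signal of 1.29, with changes of 1.55, 1.60 and 1.31. They were also lost after quantile normalization, after centring each array on its median, and with the pooled median as the value added, where the change at 1 µM GSK436 was 0.77. All 3 were lost as well with only the groups compared and with array weights. Each was also lost when some other single arrays were left out. Scaling moved the median change of all genes in parental cells to between -0.43 and -0.12 after centring. Relative to the median of all genes IL6 was higher by 0.80 to 2.01 in the 6 parental treatments, CXCL1 was at -3.29 to -2.50 and CXCL8 at -5.78 to -4.41.

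IL1B, the secreted alarm cytokine, gave 155.8 to 353.39 on treated parental arrays with a median of 249.23, against 153.66, 178.02 and 141.58 with DMSO. Of the 15 treated arrays 14 lay above every DMSO array. Its changes of 0.24 to 0.98 were under the fold limit and none passed the test, the nearest being the combination with 1 µM GSK436 (0.81 ± 0.33, adjusted p = 0.0659 in limma). A second probe set of IL1B was called higher in the combination with 0.1 µM GSK436 (1.05 ± 0.35, adjusted p = 0.0408). IL1A, whose protein also acts inside the cell, gave 2.59 to 107.84 on treated arrays with a median of 47.34, against 83.63, 71.67 and 41.08 with DMSO, and was not called in any treatment (-2.26 to 0.14). The probe sets of IL1A went apart at 1 µM GSK436, where this one gave -2.26 ± 0.97 and the other 0.98 ± 0.89, with 62.24 and 66.33 in treated cells against 27.8 to 35.87 with DMSO, and neither was called, so that no direction can be given for IL1A there.

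**Figure D2:**
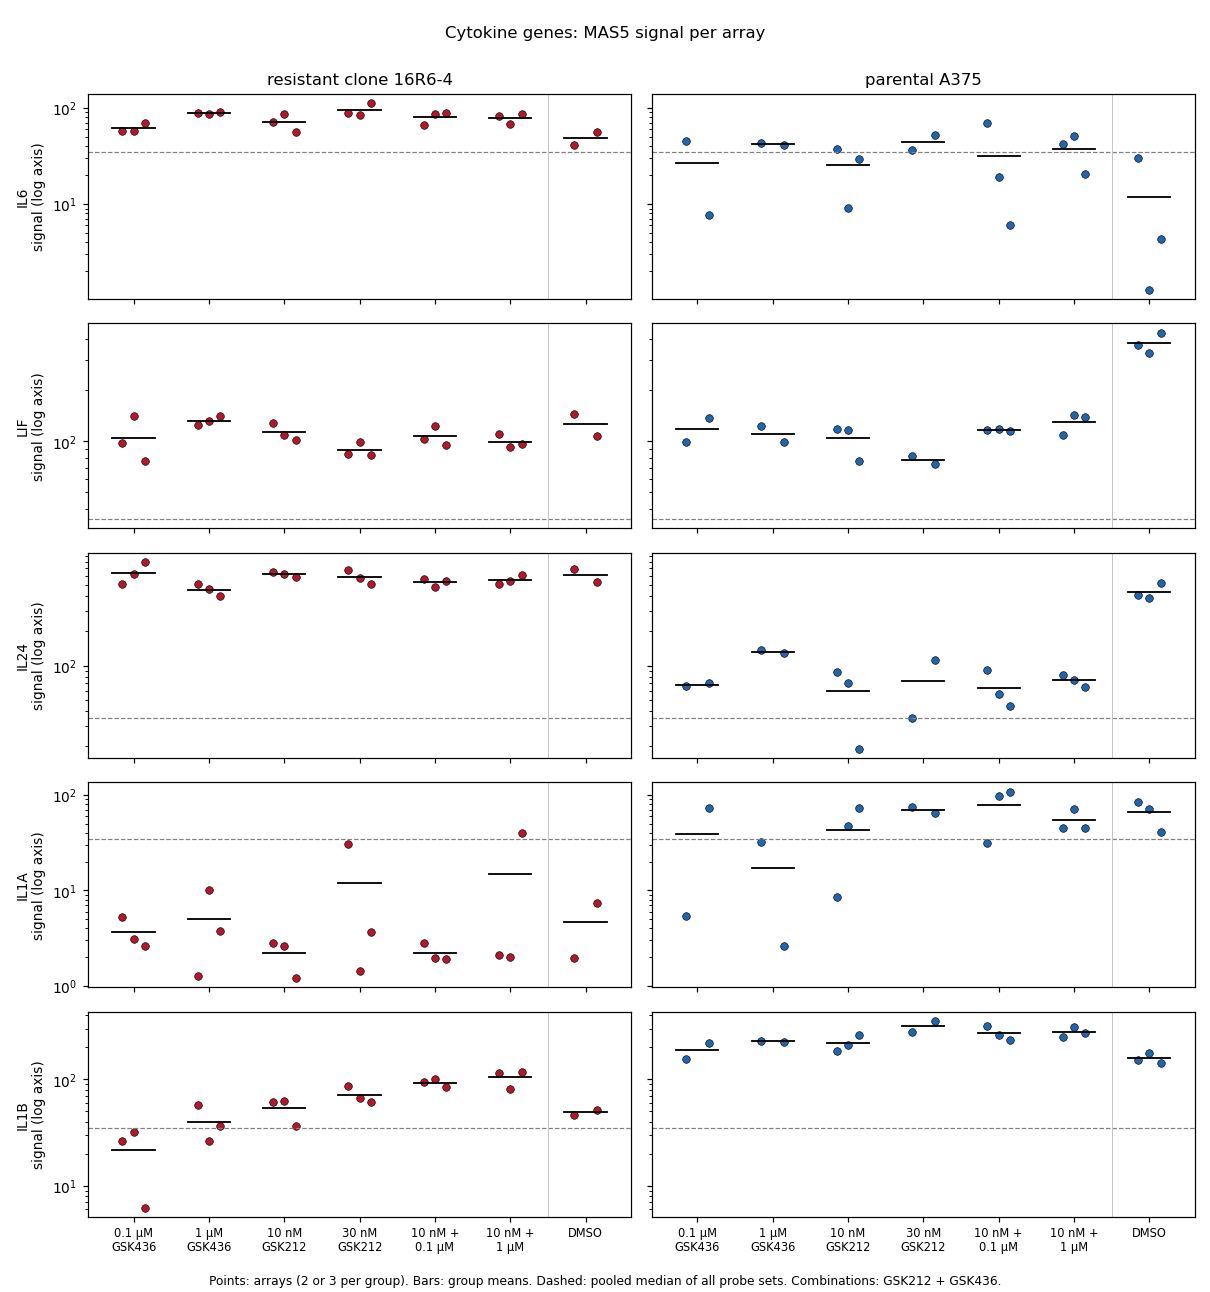
Signal intensity (MAS5 units, log axis) of IL6, IL1A, IL1B, IL24 and LIF by treatment, with resistant cells on the left and parental cells on the right; points are arrays, bars are group means and the dashed line is the pooled median signal of 34.88. LIF and IL24 are lower on every treated parental array than with DMSO, IL24 stays between 398.5 and 789.88 on all resistant arrays, and IL1B is lower on every resistant array than on any parental array.

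In resistant cells 1 of the 60 pairs of member and treatment was called. The members called were 0, 0, 0, 1, 0 and 0 of 10 in the 6 treatments, in the order given above, where 0.00554%, 0.0775%, 2.78%, 4.32%, 4.86% and 6.54% of all genes were called. The call was CXCL8 at 30 nM GSK212 (-3.14 ± 0.89, adjusted p = 0.0237 in limma), where it gave 2.16, 32.61 and 4.64, against 57.13 and 151.74 in resistant DMSO cells, and 0.958% of all genes were called lower. This call was lost without resistant DMSO replicate 2 (-2.45), without 30 nM GSK212 replicate 1 (-2.57) or replicate 3 (-2.86), and with the mean of both probe sets (-1.75). It was also lost with only the groups compared and with array weights (-2.16). With GSK212 at 10 nM, alone or with GSK436, CXCL8 gave 10.03 to 37.44, also under both DMSO arrays, with changes of -2.30 to -1.89 that were not called. With GSK436 alone it gave 79.67, 75.8 and 15.67 at 0.1 µM and 49.49, 41.77 and 43.27 at 1 µM, with changes of -0.97 and -1.02.

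CXCL1 in resistant cells gave 133.3, 157.17 and 172.88 with 0.1 µM GSK436, 125.24, 114.38 and 124.35 with 1 µM GSK436, 93.98, 79.89 and 79.75 with 10 nM GSK212, and 86.34, 83.01 and 88.24 with 30 nM GSK212. In the combinations it gave 115.82, 124.04 and 75.38 with 0.1 µM GSK436 and 76.13, 94.01 and 130.73 with 1 µM GSK436, against 169.19 and 147.17 with DMSO. Apart from the arrays with 0.1 µM GSK436, every treated array lay below both DMSO arrays. The changes with GSK212 were -0.88 ± 0.27 at 10 nM (adjusted p = 0.0557 in limma) and -0.86 ± 0.27 at 30 nM (adjusted p = 0.0477, under the fold limit), and they were -0.04 and -0.37 with 0.1 and 1 µM GSK436. The median of all genes in resistant cells lay between -0.30 and -0.19 after centring, against 0.05 to 0.22 as deposited, and after centring CXCL1 was called in all 4 treatments with GSK212, at -1.36 to -1.05.

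IL24 and LIF, lower in every parental treatment, were not called in resistant cells. IL24 gave 398.5 to 789.88 with a median of 556.38 on the 18 treated arrays, against 683.01 and 533.03 with DMSO, and its changes lay between -0.41 and 0.07. LIF gave 76.73 to 140.57 with a median of 102.37, against 144.27 and 106.79 with DMSO, and its changes lay between -0.48 and 0.09. The groups overlap in both genes and no change was called. IL6 gave 56.34 to 112.18 with a median of 85.69 on treated arrays, against 41.66 and 56.13 with DMSO, so that every treated array lay above both DMSO arrays, by a narrow margin at the low end. Its changes of 0.33 to 0.93 were not called, and at 0.1 µM GSK436 the change was -0.08 after centring. CXCL2 changed by 0.07 to 1.60, CXCL3 by -1.62 to 0.15 and CXCL5 by 0.31 to 1.82, without a call. IL1A changed by -0.49 to 0.53 and IL1B by -1.31 to 1.03, also without a call. In the combination with 1 µM GSK436 CXCL2 gave 135.41 to 168.42, against 42.35 and 53.51 with DMSO. A dimmer probe set went the other way, with 1.61 to 5.71 against 10 and 12.24. CXCL2 and IL1B were called there in some settings, as without arrays above a ratio of 20 (adjusted p = 0.0143 and 0.0122 in limma).

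**Figure D3:**
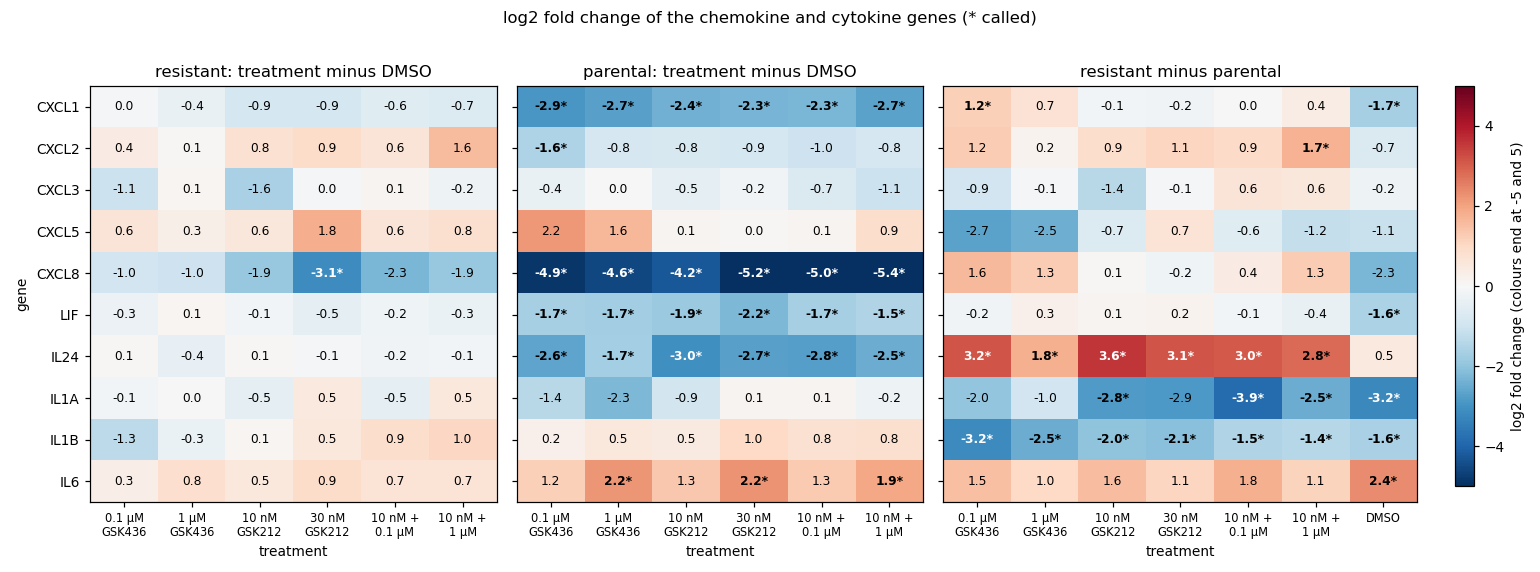
Map of log2 fold changes of the 10 members (lines) in each comparison (columns): resistant treatments minus DMSO on the left, parental treatments minus DMSO in the middle, and resistant minus parental cells at each treatment on the right. Colours end at -5 and 5 and an asterisk marks a call; CXCL1, CXCL8, LIF and IL24 are called lower in all 6 parental columns, and 1 of the 60 entries for resistant treatments is called.

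The difference between the lines in the drug change was tested directly, as the change in resistant cells minus that in parental cells. Of the 60 pairs 15 were called, all positive, in CXCL1, LIF and IL24: 3 members at 0.1 µM GSK436, 2 at 1 µM GSK436, 3 at 10 nM GSK212, 2 at 30 nM GSK212, 3 in the combination with 0.1 µM GSK436 and 2 in that with 1 µM GSK436. In these comparisons 4.22%, 11.1%, 1.92%, 0.797%, 0.797% and 1.06% of all genes were called, and 1.94%, 5.52%, 0.925%, 0.393%, 0.454% and 0.659% were called higher. For CXCL1 the difference was 2.86 ± 0.38 at 0.1 µM GSK436 (adjusted p = 8.26e-06 in limma) and for IL24 it was 3.10 ± 0.51 at 10 nM GSK212 (adjusted p = 0.000293). For LIF it was 1.83 ± 0.37 at 1 µM GSK436 (adjusted p = 0.000971). Of the 15 calls 6 were lost neither in any setting that gave a value nor with any array left out: CXCL1 at both doses of GSK436 and in the combination with 1 µM GSK436, LIF at 1 µM GSK436, and IL24 at 0.1 µM GSK436 and 10 nM GSK212. The number of calls was 7 without resistant DMSO replicate 2, and 5 without the arrays with an actin ratio above 20, a fit that has no value at either dose of GSK436 alone. LIF in the combination with 0.1 µM GSK436 was the least stable, lost in 4 settings and with any of 8 arrays left out. For CXCL8 the difference lay between 2.08 and 3.91, with standard errors of 1.19 to 1.26, and was not called (adjusted p = 0.0563 at 1 µM GSK436). For IL6 it lay between -1.36 and -0.60 and was not called, so that a difference between the lines in its drug change was not detectable with these arrays.

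With the vehicle alone, resistant cells had less CXCL1, LIF, IL1A and IL1B and more IL6 than parental cells. These 5 of 10 members were called, against 3.69% of all genes (2.2% lower and 1.49% higher), and the median of the members was -1.34 against -0.10 over all genes. CXCL1 gave 169.19 and 147.17 in resistant and 567.81, 553.68 and 405.36 in parental DMSO cells (-1.66 ± 0.27, adjusted p = 6.03e-05 in limma). LIF gave 144.27 and 106.79 in resistant and 368.26, 329.85 and 434.13 in parental DMSO cells (-1.57 ± 0.26, adjusted p = 6.29e-05). In both genes the lines did not overlap, and these calls were kept in every setting and with any array left out.

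IL6 gave 41.66 and 56.13 in resistant and 30.28, 1.29 and 4.37 in parental DMSO cells (2.37 ± 0.69, adjusted p = 0.032 in limma). The lines did not overlap, but the call was lost without parental DMSO replicate 2 (1.73) or replicate 3, without either resistant array, with the pooled median added, with only the groups compared and with array weights. IL1A gave 1.97 and 7.35 in resistant and 83.63, 71.67 and 41.08 in parental DMSO cells (-3.24 ± 0.97, adjusted p = 0.0411). Its call was lost in 5 settings and when any of the 5 DMSO arrays was left out, and its second probe set gave -1.86 (adjusted p = 0.39). CXCL8 gave 57.13 and 151.74 in resistant and 555.04, 635.02 and 283.95 in parental DMSO cells, which did not overlap, but the difference of -2.28 ± 0.89 was not called (adjusted p = 0.163). It was called in some other settings, as with the 25th percentile added (-2.19, adjusted p = 0.0343 in limma) or the pooled median added (-1.94, adjusted p = 0.00054). IL24 gave 683.01 and 533.03 in resistant and 408.5, 386.91 and 521.58 in parental DMSO cells (0.47 ± 0.38, adjusted p = 0.662).

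Under the drugs the lines differed in other members. IL24 was called higher in resistant cells in all 6 treatments, by 1.76 to 3.56, with every resistant array (398.5 or more) above every treated parental array (136.58 or less). IL1B was called lower in resistant cells in all 6 treatments, by -3.17 ± 0.37 at 0.1 µM GSK436 (adjusted p = 5.09e-08 in limma) to -1.41 ± 0.33 in the combination with 1 µM GSK436 (adjusted p = 0.00215). Both combination calls were lost after centring, where the differences were -1.22 (adjusted p = 0.0561) with 0.1 µM GSK436 and -0.89 (adjusted p = 0.122) with 1 µM GSK436. With DMSO it differed by -1.62 ± 0.37 (adjusted p = 0.00442), a call lost after centring (-1.35), after quantile normalization (-1.30) and without resistant DMSO replicate 1. Its highest resistant array gave 117.52 and its lowest parental array 141.58, so that the lines did not overlap in any treatment. Its second probe set was also called lower with DMSO (-1.63 ± 0.39, adjusted p = 0.0103) and in 5 of the 6 treatments.

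The members called between the lines under the drugs were 3, 2, 3, 2, 3 and 4 of 10 in the 6 treatments, where 19.3%, 28.7%, 11.8%, 5.88%, 6.46% and 13.6% of all genes were called. The higher calls were 2, 1, 1, 1, 1 and 2 members, against 7.14%, 11.1%, 4.96%, 2.28%, 2.79% and 6.17% of all genes, and the lower calls 1, 1, 2, 1, 2 and 2 members, against 12.1%, 17.6%, 6.82%, 3.61%, 3.66% and 7.46%. Besides IL24 and IL1B they were CXCL1 at 0.1 µM GSK436 (1.21 ± 0.27, adjusted p = 0.000863 in limma), IL1A at 10 nM GSK212 and in both combinations (-3.85 to -2.47), and CXCL2 in the combination with 1 µM GSK436. The IL1A call in the combination with 0.1 µM GSK436 was lost in no setting that gave a value and with no array left out. The second probe set of IL1A overlapped there, with 1.34 to 31.77 in resistant and 3.5 to 63.51 in parental cells. It also overlapped at 10 nM GSK212 (1.75 to 41.84 against 27.59 to 33.76). In the combination with 1 µM GSK436 it did not overlap (12.82 to 18.52 against 35.42 to 52.26). The calls named next are those of the first probe set. That at 10 nM GSK212 was lost in 2 settings (-0.97 with the pooled median added, and -2.43 without the arrays with an actin ratio above 20) and with any of 3 arrays left out, and that in the combination with 1 µM GSK436 in 5 settings (-2.89 to -0.91) and with any of 5 arrays left out. CXCL1 gave 133.3, 157.17 and 172.88 in resistant and 76.84 and 54.69 in parental cells at 0.1 µM GSK436, and with 10 or 30 nM GSK212 the difference was -0.14 and -0.17. The call of CXCL1 was lost with only the groups compared (adjusted p = 0.0853), with the pooled median added (0.91) and without parental 0.1 µM GSK436 replicate 3 (0.97). CXCL2 gave 168.42, 147.03 and 135.41 in resistant and 39.35, 21.79 and 93.74 in parental cells with the combination (1.72 ± 0.49, adjusted p = 0.00885). Another probe set of CXCL2 was called in the opposite direction there (-2.69 ± 0.83, adjusted p = 0.0208), the mean of the probe sets gave -0.48, and the call was lost without parental replicate 2 of that combination (1.26). IL6 stayed at 1.01 to 1.77 in the 6 treatments and was not called. CXCL5 gave -2.66 with 0.1 µM GSK436 and -2.45 with 1 µM GSK436 without a call, but was called in some other settings.

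IL6 was then set against each CXC gene within an array, as the difference of their log2 values. The difference itself compares unlike probe sets and has no meaning as a level, so that its change between drug and DMSO arrays was tested, by an exact two-sided permutation test over arrays, with p adjusted over the 10 pairs of line and gene. In parental cells the difference of IL6 and CXCL8 lay between -0.89 and 3.29 on the 15 treated arrays, against -7.28 to -4.08 on the 3 DMSO arrays. That of IL6 and CXCL1 lay between -3.73 and -0.06 on treated arrays, against -7.09 to -4.11 with DMSO. In both pairs the treated and DMSO arrays did not overlap. The means differed by 6.55 for CXCL8 and by 4.20 for CXCL1 (exact permutation p = 0.00123 each, the smallest that the 816 splits can give, adjusted p = 0.00613).

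CXCL2 and CXCL3 also parted from IL6 in parental cells, by 2.63 (exact permutation p = 0.0049, adjusted p = 0.0163) and 2.20 (exact permutation p = 0.0172, adjusted p = 0.0286), with overlap between the groups. Both of these lost the threshold without parental DMSO replicate 2 or replicate 3. In the 6 parental treatments IL6 itself changed by 1.18 to 2.24, CXCL2 by -1.56 to -0.79 and CXCL3 by -1.06 to -0.03. These shifts thus rest in part on the dim IL6 signals of the DMSO arrays. CXCL5 gave 0.92 (exact permutation p = 0.37, adjusted p = 0.463). In resistant cells the difference rose by 1.23 for CXCL1 (exact permutation p = 0.0105, adjusted p = 0.0263) and by 2.53 for CXCL8 (exact permutation p = 0.0158, adjusted p = 0.0286), with overlap. Over single arrays left out the rise was 0.93 to 1.54 for CXCL1 and 2.05 to 3.01 for CXCL8. With 1 of the 2 DMSO arrays left out, the splits are too few for any p under 0.05, so the test cannot judge stability there. The smallest p that the 190 splits of resistant arrays allow is 0.00526. CXCL2 (-0.07), CXCL3 (1.12) and CXCL5 (-0.13) did not pass in resistant cells.

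Without the 15 arrays whose actin ratio exceeded 20, 6 treated and 3 DMSO parental arrays remained, and the values were 6.23 for CXCL8 and 3.99 for CXCL1. The exact permutation p was then 0.0119 for each, the smallest possible, and with an adjusted p of 0.0595 neither passed the threshold. The parental shifts of CXCL8 and CXCL1 were thus nearly as large without those arrays. Leaving out any single array gave 5.69 to 7.29 for CXCL8 and 3.49 to 4.98 for CXCL1, and both always passed.

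**Figure D4:**
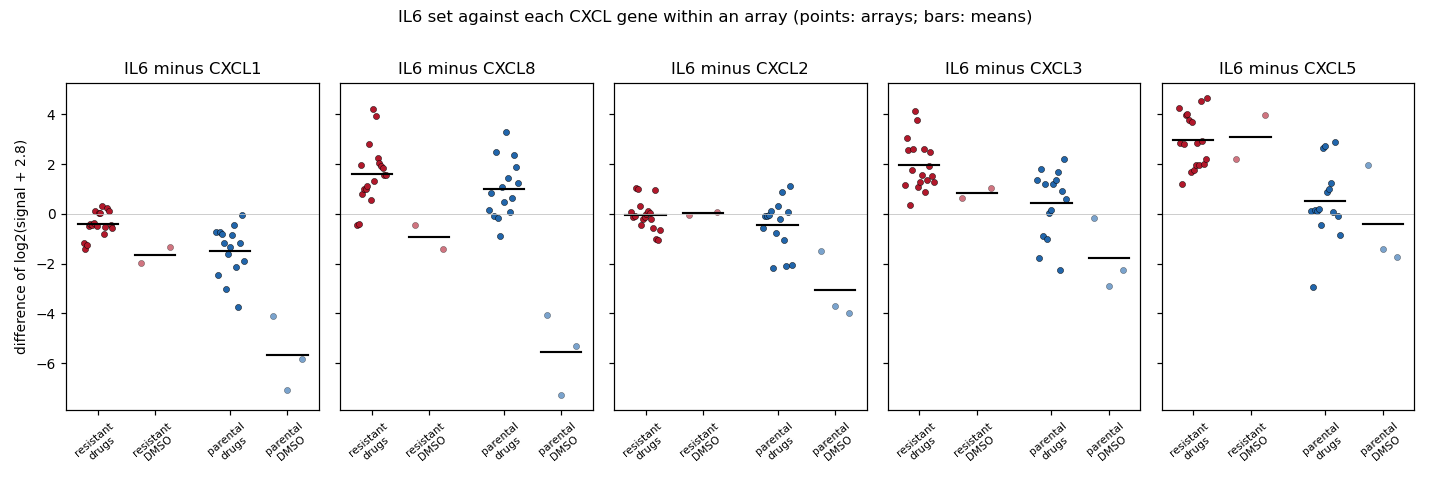
Difference of log2(signal + 2.8) between IL6 and each CXC gene, 1 panel per CXC gene and 1 point per array, for resistant drug, resistant DMSO, parental drug and parental DMSO arrays. For CXCL1 and CXCL8 all 15 parental drug arrays lie above the 3 parental DMSO arrays, while resistant drug and DMSO arrays overlap.

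The 2 doses of a drug and the 2 drugs were not told apart by the members. None of the 60 pairs for 1 against 0.1 µM GSK436, 30 against 10 nM GSK212 or 1 µM GSK436 against 10 nM GSK212 was called, where 0.249%, 0% and 0.814% of all genes were called in parental and 0.111%, 0% and 2.3% in resistant cells. The nearest was IL24 in parental cells, which was higher with 1 µM GSK436 than with 10 nM GSK212 (1.35 ± 0.38, adjusted p = 0.0642 in limma). CXCL1 differed by -0.34 ± 0.27 and CXCL8 by -0.33 ± 0.89 in that comparison, intervals that for CXCL8 allow a difference past the fold limit.

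In resistant cells IL1B was higher with both drugs than with GSK436 alone. It gave 94.06, 101.06 and 84.32 with the combination at 0.1 µM GSK436, against 26.45, 32.04 and 6.23 with 0.1 µM GSK436 alone, a change of 2.19 ± 0.33 (adjusted p = 1.9e-05 in limma) that was not called with only the groups compared (adjusted p = 0.0625). With the combination at 1 µM GSK436 it gave 114.32, 81.3 and 117.52, against 57.25, 26.25 and 36.37 with 1 µM GSK436 alone (1.37 ± 0.33, adjusted p = 0.00452). This second call was lost after quantile normalization (1.07), after centring (1.15), with the pooled median added (0.91) and without resistant 1 µM GSK436 replicate 2 (1.13). The groups did not overlap at either dose. CXCL2 was also called higher in the combination at 1 µM, with 168.42, 147.03 and 135.41 against 42.21, 41.52 and 71.27 with 1 µM GSK436 alone (1.53 ± 0.49, adjusted p = 0.0345), a call lost with the mean of its probe sets (0.17), after quantile normalization (1.26), after centring (1.31) and with any of 5 of the 6 arrays left out. These were 1 and 2 of 10 members, where 4.65% and 5.59% of all genes were called (3.46% and 4.1% higher), and the only 3 calls of 80 pairs. Against 10 nM GSK212 alone IL1B gave 0.80 and 0.94 and was not called, where 0.00554% and 0.554% of all genes were. In parental cells no member was called in the 4 comparisons of combinations with single drugs, where 0.00554%, 1.27%, 0.343% and 0.0166% of all genes were called.

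The ERK pathway genes show the drug action beside the members. DUSP6, the phosphatase that ERK induces and that inactivates it, was called lower in all 6 parental treatments (-7.56 to -4.83) and in the 4 resistant treatments with GSK212 (-6.60 to -4.68), and not with GSK436 alone in resistant cells (-0.14 and -0.79). Of 15 listed ERK output genes 14 or 15 fell in each parental treatment, while in resistant cells 0 fell with GSK436 alone and 10 to 13 fell with GSK212. In those 4 resistant treatments with GSK212, CXCL8 was called once and CXCL1, LIF and IL24 were not called. CXCL8 changed by -3.14 to -1.89 and CXCL1 by -0.88 to -0.61 there, with every array below both DMSO arrays. The dimmer second probe set of CXCL8 lay below both DMSO arrays (6.76 and 32.77) at 10 nM GSK212 alone (3.14 to 5.91). It overlapped them at 30 nM (2.26 to 38.75) and in both combinations.

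Among all genes tested 6.51% to 11.9% rose and 3.46% to 7.78% fell in the parental treatments, and the counts of the lists below are to be read against these shares. Transcription factors that bind such promoters moved in both directions. FOSL1, an AP-1 subunit, fell in all 6 parental treatments (-3.94 to -2.55) and with GSK212 in resistant cells (-2.77 to -1.47). JUND, another AP-1 subunit, rose in all 6 parental treatments (1.08 to 2.47) and with GSK212 in resistant cells (1.47 to 1.66), and the stress factor ATF3 rose in 5 parental treatments (1.70 to 3.04) and in the same 4 resistant ones (1.42 to 2.28). Of 11 factors measured 2 or 3 rose (18.2% to 27.3%) and 1 or 2 fell (9.09% to 18.2%) in each parental treatment. Of 16 measured genes of the NF-kappa B pathway, 0 to 4 rose (up to 25%) and 0 to 3 fell (up to 18.8%) in the parental treatments, ranges that span the shares of all genes. The NF-kappa B subunit gene NFKB1 fell in 4 of them (-1.37 to -1.01). TNFAIP3, the feedback inhibitor A20, fell in 4 parental treatments (-1.61 to -1.25) and in the 4 resistant ones with GSK212 (-2.69 to -1.88), and in DMSO cells it was higher in the resistant line (1.82 ± 0.33, adjusted p = 0.000314 in limma). The median of this list lay between -0.24 and 0.28 in parental cells.

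On the receiving side, of 13 measured receptors of these ligands 1 to 3 rose (7.69% to 23.1%) and 0 or 1 fell (up to 7.69%) in the parental treatments. IL6R, the ligand-binding chain for IL6, rose in all 6 parental treatments (1.07 to 1.77) and in the 4 resistant ones with GSK212 (1.07 to 1.48), while IL6ST, the gp130 chain, fell in 3 parental treatments (-1.60 to -1.16). Of 12 measured genes of the STAT3 pathway 0 or 1 rose (up to 8.33%) and 0 to 2 fell (up to 16.7%) in parental cells and 0 were called in resistant cells, and SOCS3, its feedback inhibitor, fell at 0.1 µM GSK436 (-2.41 ± 0.76, adjusted p = 0.0173 in limma).

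Of 17 other measured chemokine genes 1 to 4 rose (5.88% to 23.5%) and 0 to 2 fell (up to 11.8%) in the parental treatments, and 0 were called in the resistant ones, where 0.00554% to 6.54% of all genes were. CCL26, an eosinophil chemokine, rose in all 6 parental treatments (1.88 to 2.62). Of 15 other cytokine and growth factor genes 3 or 4 rose (20% to 26.7%) and 1 or 2 fell (6.67% to 13.3%) in the parental treatments. IL18, a cytokine of the IL1 family, rose in all 6 (1.03 to 1.30) and was higher in resistant than in parental DMSO cells (3.24 ± 0.26, adjusted p = 3.72e-11 in limma). SIGIRR, an inhibitory receptor of the IL1 family, rose in all 6 parental treatments (1.05 to 1.66). ZFP36L2, which binds AU-rich mRNA and promotes its decay, fell in all 6 parental treatments (-2.87 to -1.89) and in 3 resistant ones (-1.42 to -1.06).

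Over the 14 group means CXCL1 and CXCL8 had a Pearson's r of 0.93, CXCL1 and LIF 0.81, and CXCL8 and LIF 0.82. All 3 are highest in 1 group, parental DMSO, and r was not computed without that group. IL1B and IL24 had an r of -0.84, IL1A and IL1B 0.82, and IL6 and LIF -0.66. Among all genes tested the group means most like those of CXCL8 were VPS25 (r = 0.932), CXCL1 (0.927), MCM8 (0.921), MRPL17 (0.916) and MRPS26 (0.909). Those most like IL6 were MME (0.932), IGFN1 (0.931), CARD16 (0.917), RNF144B (0.917) and ABLIM1 (0.912). The groups share arrays' scaling and are of 2 lines, so these values describe the 14 means and no more.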

How the data were processed

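The authors made the deposited signal intensities with MAS5 from Affymetrix arrays, per the submitters' processing notes (the version is not given there), and the trimmed mean of each array shows their scaling to a common value. Per the labels' protocols, RNA came from cells in RPMI1640 medium and was labelled with biotin as cRNA. No detection calls were used here. Groups, doses and replicate numbers come from the labels, and pairs of replicates had an r of 0.846 to 0.937 across probe sets.

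Of 54675 probe sets, 41097 name 1 gene, 1801 several and 11777 none, by the platform annotation. Probe sets over the pooled median of 34.88 on at least 2 arrays were kept (35888), and the one with the highest mean stood for its gene (18063 genes). Values entered as log2 of signal plus 2.8. A linear model of 14 group means (24 residual degrees of freedom, 39 comparisons) was fitted in limma 3.58.1 under R 4.3.3 with eBayes and trend, and the Benjamini-Hochberg adjustment was made per comparison. A call needed both an adjusted p under 0.05 and a log2 fold change of 1 or more in size. The fit was tested on simulated arrays. IL6 against the CXC genes was tested by exact permutation of arrays. Promoters are from RefSeq (GRCh38.p14). Tables were read with data.table (version 1.17.8), and figures and promoters handled with Python 3.11.15, pandas 2.3.3, numpy 2.4.6 and matplotlib 3.10.9.

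The members, gene lists and tests were chosen with earlier results of these data known. Genes named outside the members were called members of the lists, or, for the likeness over group means, the 5 genes with the highest r to CXCL8 and to IL6. Alternatives were quantile normalization, centring, other values added before the log, other filters, the mean of probe sets, no trend, a fit of the compared groups alone, a block for the replicate number, and each array left out once. A covariate for the actin ratio, a fit without arrays above a ratio of 20, the pooled median as the value added, and array weights were chosen with values of these data known.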

Additional observations from a re-analysis of the deposited data

Results flagged for a closer look

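The drug change differed between the lines, by the test of the difference itself, in 15 pairs of gene and treatment, each positive (resistant change minus parental change, adjusted p from limma). CXCL1 differed by 2.86 at 0.1 µM GSK436 (adjusted p = 8.26e-06), 2.36 at 1 µM GSK436 (adjusted p = 8.67e-05), 1.51 at 10 nM GSK212 (adjusted p = 0.0169), 1.67 in the combination with 0.1 µM GSK436 (adjusted p = 0.0118) and 2.02 in that with 1 µM GSK436 (adjusted p = 0.0012). LIF differed by 1.39 at 0.1 µM GSK436 (adjusted p = 0.019), 1.83 at 1 µM GSK436 (adjusted p = 0.000971), 1.71 at 10 nM GSK212 (adjusted p = 0.00328), 1.75 at 30 nM GSK212 (adjusted p = 0.00837) and 1.44 in the combination with 0.1 µM GSK436 (adjusted p = 0.0287). IL24 differed by 2.69 at 0.1 µM GSK436 (adjusted p = 0.00153), 3.10 at 10 nM GSK212 (adjusted p = 0.000293), 2.68 at 30 nM GSK212 (adjusted p = 0.0057), 2.58 in the combination with 0.1 µM GSK436 (adjusted p = 0.00434) and 2.37 in that with 1 µM GSK436 (adjusted p = 0.00901). The 9 others than CXCL1 at both doses of GSK436 and in the combination with 1 µM GSK436, LIF at 1 µM GSK436 and IL24 at 0.1 µM GSK436 and 10 nM GSK212 were each lost in at least 1 setting or with at least 1 array left out, 4 of the 5 for LIF among them. For CXCL1 and LIF the lines also differed with DMSO (-1.66 and -1.57), and their treated arrays lay near each other with GSK212. With GSK436 alone LIF also had near means, 105.04 in resistant and 117.5 in parental cells at 0.1 µM, and 132.35 and 110.76 at 1 µM. LIF was not called between the lines in any drug treatment, so its differences in drug change came mainly from the DMSO arrays. For IL24 the DMSO arrays of the lines gave 533.03 to 683.01 in resistant and 386.91 to 521.58 in parental cells, and the treated arrays lay apart.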

How the results depend on the processing

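Of 69 calls, 43 were lost with none of 38 arrays left out and under no other setting that gave a value, among them the 24 parental calls of CXCL1, CXCL8, LIF and IL24. Of the 43, 26 had a value in all 14 other settings and 17 in 13, with none from the fit without arrays above an actin ratio of 20 for 16 and from the filter at the 75th percentile for 1. The cause of the changes below was not tested. Leaving out each array gave 25 to 30 parental calls (28 with all arrays), 0 to 3 resistant (1), 19 to 28 between the lines (22), 7 to 19 for the difference in drug change (15), 1 to 3 for combinations (3), 0 to 1 for doses and drugs (0) and 4 to 6 for IL6 against the CXC genes (6). The 7 arose without resistant DMSO replicate 2, the 19 without parental 0.1 µM GSK436 replicate 2 and the 1 without resistant 1 µM GSK436 replicate 2. Resistant calls were 5 after centring, 2 and 4 with the 25th percentile and the pooled median added, 3 with a filter at the 75th percentile, 3 with only the groups compared, 2 with the actin ratio as a covariate, 3 without arrays above a ratio of 20 and 2 with array weights. Differences in drug change numbered 24 with the pooled median added, 23 with array weights and 5 without arrays above a ratio of 20, where fewer groups remained. Combination calls were 1 after quantile normalization or centring and 5 with array weights. For doses and drugs 1 call arose in each of 5 settings (quantile normalization, the 75th percentile filter, the replicate block, the covariate and array weights), against 0 in limma as run. IL6 against the CXC genes gave 0 of 10 without arrays above a ratio of 20, where fewer arrays remained. Same-numbered replicates did not deviate together (median r 0.00, -0.33 to 0.16 over 105 pairs, against -0.26 to 0.37 over 204 pairs with different numbers). No pairing by number was thus detected, but groups this small cannot exclude it and the labels do not settle it. With the replicate number as a block there were 28 parental, 1 resistant and 22 line calls, 17 differences in drug change, 3 combination calls, 1 for doses and drugs and 4 for IL6 against the CXC genes. Signs turned for values that had not been called: IL6 against CXCL2 in resistant cells with the mean of probe sets (0.27), IL6 against CXCL5 there with the 25th percentile (0.12) or pooled median added (0.23), the mean of probe sets (0.34), without arrays above a ratio of 20 (0.08) and without resistant DMSO replicate 2 (0.75, range -1.0 to 0.75 over left-out arrays), CXCL1 at 0.1 µM GSK436 in resistant cells without resistant DMSO replicate 1 or without resistant 0.1 µM GSK436 replicate 1 (0.06 each, range -0.14 to 0.06), and IL6 at that dose after centring (-0.08). The called line difference of CXCL2 in the combination with 1 µM GSK436 became -0.48 with the mean of probe sets. Signals near the value of 2.8 added before the log limit IL6, CXCL8, IL1A, CXCL3 and CXCL5, whose changes move with it.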

Other observations

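The number of arrays over the pooled median of 34.88 differed among the members: 38 of 38 for CXCL1 and LIF, 37 for IL24, 34 for CXCL2 and IL1B, 29 for IL6, 14 for CXCL8 and IL1A, 6 for CXCL5 and 3 for CXCL3. Of the 14 for CXCL8, 8 were resistant (6 treated and 2 DMSO) and 6 were parental (3 treated and 3 DMSO). The 2 windows that RefSeq gives for IL1A held the AP-1 letters, TGACTCA 105 bases and TGAGTCA 55 bases before one start and TGACTCA 12 bases before the other, while the window of IL1B held none and had a C/EBP match, TTGCAAAA, 215 bases before its start.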
